A study of Mus musculus with 31 samples.

Results

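The collagen gene family was described here in mouse yolk sacs that carried different doses of Etv2, the ETS transcription factor at the top of endothelial and primitive blood development. The members were all rows of the expression table whose symbol is Col, a number, the letter a and a number, 36 of 18477 genes. They were grouped as 9 fibrillar genes, 7 basement membrane genes (the type IV chains and the multiplexins Col15a1 and Col18a1) and 20 others. RNA came from single somite-matched yolk sacs at embryonic day 8.5, 1 library each.

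The groups were Etv2+/+ (n = 6), Etv2+/enhΔ (n = 4), Etv2+/Δ (n = 6), Etv2enhΔ/enhΔ (n = 5), the compound heterozygote Etv2enhΔ/Δ (n = 5) and the null Etv2Δ/Δ (n = 5). The Δ allele is a germline deletion of the exons for the DNA-binding domain, obtained with a Mef2c-AHF-Cre transgene. The enhΔ allele is a genome-edited deletion of an upstream enhancer, made in FVB zygotes and carried by a pair of founder lines. Embryos came from crosses on a mixed background, no group received a treatment, and both sexes were present.

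Collagens are secreted as helical trimers that are modified in the endoplasmic reticulum, trimmed outside the cell and then built into fibrils or networks. Fibrillar chains of types I, II, III, V and XI form the banded fibres of mesenchyme, with the type V and XI chains as minor chains that nucleate fibrils and limit their diameter. The fibrillar class here also holds Col24a1 and Col27a1. Type IV chains form the sheet-like network of basement membranes, such as that between the endoderm and the mesoderm of the yolk sac and that under endothelium, and the Col18a1 product is a proteoglycan of the same membranes.

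The libraries held 2671612 to 22396340 reads in genes (median 13894962), so that 1 read was worth 0.0440 to 0.378 CPM, that is, counts scaled to a common library total. Mitochondrial reads made up over 15% of 7 libraries, which belonged to Etv2+/+ (replicate 1), Etv2+/Δ (replicates 2 and 3), Etv2enhΔ/enhΔ (replicates 1 to 3) and Etv2Δ/Δ (replicate 1). The pseudogene Ftl2-ps divided the libraries as the genotypes do in part: it was at 36.5 to 50.2 CPM in 5 of 6 Etv2+/+ and 3 of 4 Etv2+/enhΔ libraries and at most 0.515 CPM in the other 23. Of 11 libraries labelled male, 4 had Xist reads and next to no Y-linked reads. They were Etv2+/Δ replicates 2 and 3 and Etv2Δ/Δ replicates 1 and 2. Etv2 itself was at 0 to 0.491 CPM in Etv2+/+, at most 0.158 CPM in Etv2+/enhΔ and at most 0.388 CPM in Etv2enhΔ/enhΔ. It was at 0.729 to 3.59 CPM in Etv2+/Δ, 0.220 to 2.98 CPM in Etv2enhΔ/Δ and 0.220 to 2.52 CPM in Etv2Δ/Δ. These values did not follow the Etv2 dose of the genotypes. The row also counts exons outside the deletion, and it was not used to check labels. Among tissue markers, the visceral endoderm genes summed to 33451 CPM or more in every library. They ran from 36726 to 45515 CPM (median 38801) in Etv2+/+ and 39239 to 50954 CPM (median 45113) in Etv2enhΔ/Δ. In Etv2Δ/Δ they ran from 34892 to 61805 CPM (median 52642.5). Primitive erythroid markers summed to 1308 to 5062 CPM in Etv2+/+, 386 to 2180 CPM in Etv2enhΔ/Δ and 7.33 to 62.4 CPM in Etv2Δ/Δ. Endothelial markers summed to 264 to 407 CPM in Etv2+/+, 492 to 554 CPM in Etv2enhΔ/Δ and 101 to 156 CPM in Etv2Δ/Δ. In the null Emcn, Cldn5 and Esam averaged 0.00880, 0.102 and 0.399 CPM. Not all of the list was lost there: Tek averaged 123 CPM in Etv2+/+ and 103.5 CPM in the null, and Egfl7 8.31 and 9.22 CPM.

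All collagens together took up a larger part of the RNA in both mutants. The 36 genes summed to 502 to 646 CPM in Etv2+/+ (median 538), to 511 to 612 CPM in Etv2+/enhΔ, to 363 to 832 CPM in Etv2+/Δ (median 600.3) and to 258 to 569.6 CPM in Etv2enhΔ/enhΔ. In Etv2enhΔ/Δ they summed to 1520.2, 1239, 1367, 1864 and 899 CPM, and in Etv2Δ/Δ to 1409.5, 1933, 1749.9, 954 and 468 CPM. Of the 10 libraries of both mutants, 9 lay above each of the 21 others, and the exception was Etv2Δ/Δ replicate 5, which was under the Etv2+/+ range. That library also had the highest erythroid marker sum of its group (62.4 CPM against 7.33 to 13.6 CPM) and 7.05 CPM of Y-linked reads beside a female label. Where leaving it out changed a call on a named collagen in either mutant, or a class median of the null against Etv2+/+, the result without it is given too.

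**Figure D1:**
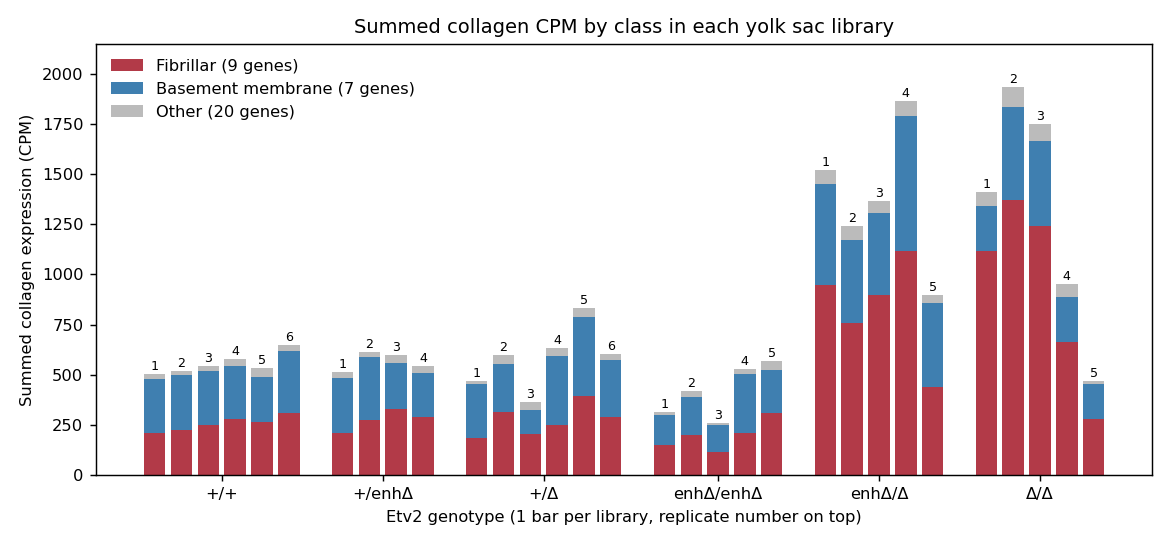
Summed CPM of the 36 collagen genes in each library, stacked by class, with libraries on the x axis grouped by Etv2 genotype and replicate numbers above the bars. The 5 Etv2enhΔ/Δ bars and 4 of the 5 Etv2Δ/Δ bars exceed 832 CPM, the highest bar of the other genotypes, and the gain is mostly in the fibrillar part.

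The make-up of the collagen pool shifted as well. Fibrillar genes held 41.5% to 49.7% of collagen CPM in Etv2+/+, 39.4% to 56.4% in Etv2+/Δ, 48.6% to 65.6% in Etv2enhΔ/Δ and 59.8% to 79.1% in Etv2Δ/Δ. Basement membrane genes held 42.4% to 53.6%, 32.6% to 57.2%, 29.9% to 46.9% and 16.1% to 36.5% in the same groups. All 5 Etv2Δ/Δ libraries, replicate 5 included, had a larger fibrillar share than any Etv2+/+ library. In Etv2enhΔ/Δ 4 of 5 libraries did, and replicate 5 of that genotype (48.6%) lay within the range of Etv2+/+. These shares were not tested, as they are scores over the members.

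Summed collagen also moved in part with the mitochondrial share of a library. In Etv2enhΔ/enhΔ, replicates 1 to 3 had 18.2% to 20.9% mitochondrial reads and 258 to 416 CPM of collagen, against 10.5% and 13.0% mitochondrial reads and 529 and 569.6 CPM in replicates 4 and 5. In Etv2+/Δ the library with the most mitochondrial reads (24.6%) had the least collagen (363 CPM). The Etv2enhΔ/Δ libraries had 7.55% to 10.2% mitochondrial reads and those of Etv2+/+ 9.69% to 16.5%. Yet Etv2Δ/Δ replicate 1 combined 18.2% mitochondrial reads with 1409.5 CPM of collagen. With the mitochondrial share as a term of the model described next, 3 collagens were called higher in Etv2enhΔ/Δ, and 8 were called higher and 1 lower in Etv2Δ/Δ, the last being Col18a1 (-0.78, adjusted p = 0.00939). The share of all genes called in that fit was not obtained.

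**Figure D2:**
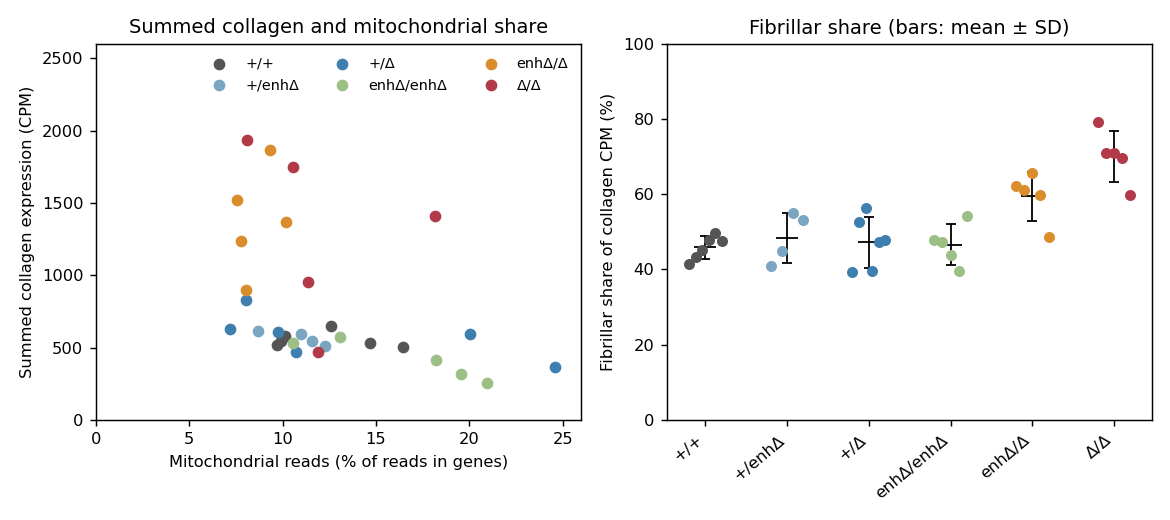
Left, summed collagen CPM of each library against its mitochondrial share of reads, coloured by Etv2 genotype. Right, the fibrillar share of collagen CPM in percent by genotype, with points for libraries and bars for mean ± SD, where Etv2Δ/Δ spans 59.8% to 79.1% and Etv2+/+ 41.5% to 49.7%.

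To ask which collagen genes differed between genotypes, limma was run on the log2(CPM + 1) values of all 18477 genes in a model of genotype that also held the sex given in the labels, and Benjamini-Hochberg adjustment was over all genes. A gene is called here when its adjusted p is under 0.05, and log2 differences are on the log2(CPM + 1) scale, which understates changes of low genes. In the F test across the 6 genotypes 14 of 36 collagens were called, against 12.1% of all genes. They were 6 fibrillar genes (Col1a1, Col1a2, Col3a1, Col5a1, Col5a2, Col11a1), 4 basement membrane genes (Col4a1, Col4a2, Col4a5, Col18a1) and Col6a1, Col6a2, Col14a1 and Col23a1. The lowest adjusted p was that of Col5a2 (6.12e-07).

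The milder genotypes gave no call among the collagens. For Etv2+/enhΔ against Etv2+/+ 0 of 36 were called (0% of all genes), with 0 at an unadjusted p under 0.05 (4.44% of all genes), and log2 differences ran from -0.56 to 0.42. For Etv2+/Δ 0 of 36 were called (0.0271% of all genes), with 1 at an unadjusted p under 0.05 (Col22a1, where 5.79% of all genes were). For Etv2enhΔ/enhΔ 0 of 36 were called (0.0216% of all genes), with 6 at an unadjusted p under 0.05 (7.14% of all genes). A count-based fit on the reads recovered from the table (limma-voom) called 0 collagens in each of these comparisons. Col1a1 had the lowest log2 difference of any collagen in Etv2enhΔ/enhΔ, -1.15 ± 0.41 (SE, adjusted p = 0.612).

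In Etv2enhΔ/Δ 4 collagens rose against Etv2+/+ and none fell, where 1.33% of all genes were called, 0.336% higher and 0.99% lower. All 4 are fibrillar: Col1a1, Col1a2, Col3a1 and Col5a2. In Etv2Δ/Δ 8 rose and none fell, where 13.3% of all genes were called, 5.6% higher and 7.69% lower. These were the same 4 genes with Col11a1, also fibrillar, and Col6a1, Col23a1 and Col26a1. Both comparisons use the same Etv2+/+ libraries. Against the Etv2+/Δ libraries, which like the mutants have few Ftl2-ps reads (a comparison added after the data were seen), 6 collagens rose in Etv2enhΔ/Δ (1.24% of all genes called, 0.373% higher and 0.871% lower). In Etv2Δ/Δ 7 rose and 2 fell (13.4% of all genes called, 5.86% higher and 7.59% lower), and Col1a1, Col1a2, Col3a1, Col5a2 and Col11a1 were among those that rose in both. Of these, Col1a1, Col1a2 and Col11a1 lost this Etv2enhΔ/Δ call with the mitochondrial share as a term (adjusted p = 0.158, 0.0512 and 0.0981). Without Etv2Δ/Δ replicate 5, Col5a1, Col6a3 and Col23a1 were also called higher in the null than in Etv2+/Δ (limma adjusted p = 0.0136, 0.000585 and 0.014). In the same fit Col4a1, Col4a2 and Col6a3 were also called higher in Etv2enhΔ/Δ than in Etv2+/Δ (adjusted p = 0.0395, 0.0343 and 0.00863).

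Of the 6 Etv2+/+ libraries 5 are on one side of the division by Ftl2-ps, and all mutant libraries are on the other, so genotype and this division are partly confounded. With the division as a term, 2 collagens were called in Etv2enhΔ/Δ (Col3a1 and Col1a2), and in Etv2Δ/Δ the 5 fibrillar genes were called higher and Col6a5 lower. The log2 differences of the lost calls in Etv2enhΔ/Δ were 2.28 ± 0.60 for Col1a1 (1.70 ± 0.42 without the term) and 1.25 ± 0.34 for Col5a2 (1.46 ± 0.23 without it), so that the errors widened. The fibrillar medians were 1.25 and 1.42 with the term. In Etv2Δ/Δ Col6a1, Col23a1 and Col26a1 lost their calls with it (adjusted p = 0.139, 0.352 and 0.315). Among the 23 libraries with few Ftl2-ps reads, where a single Etv2+/+ library is left and is assumed to vary like the other groups, 0 collagens were called in Etv2enhΔ/Δ and 1 in Etv2Δ/Δ (Col6a5, lower, with 27 reads over all libraries). Without Etv2Δ/Δ replicate 5, 6 were called in Etv2enhΔ/Δ and 12 in Etv2Δ/Δ, the 8 above among the latter. The shares of all genes called were not obtained for any alternative fit. A change in these counts can therefore not be taken as particular to collagens.

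By class, 4 of 9 fibrillar genes rose in Etv2enhΔ/Δ with a median log2 difference of 1.38, and 5 of 9 rose in Etv2Δ/Δ with a median of 1.51. None of the 7 basement membrane genes was called in either, and their medians were 0.72 and -0.08. Without Etv2Δ/Δ replicate 5 the basement membrane median in the null was 0.25, with none called, and the fibrillar median was 1.79. Of the 20 other collagens none was called in Etv2enhΔ/Δ (median 0.18) and 3 rose in Etv2Δ/Δ (median 0.11), or 6 without that library (median 0.19). The medians over all 18477 genes were 0.01 and -0.01. Between the mutants the fibrillar median differed by 0.03 and that of the basement membrane genes by -0.68, and the median over all genes was -0.02. Without Etv2Δ/Δ replicate 5 these class medians were 0.33 and -0.36. Because these are whole yolk sacs, fewer cells of a type and less RNA per cell cannot be told apart.

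**Figure D3:**
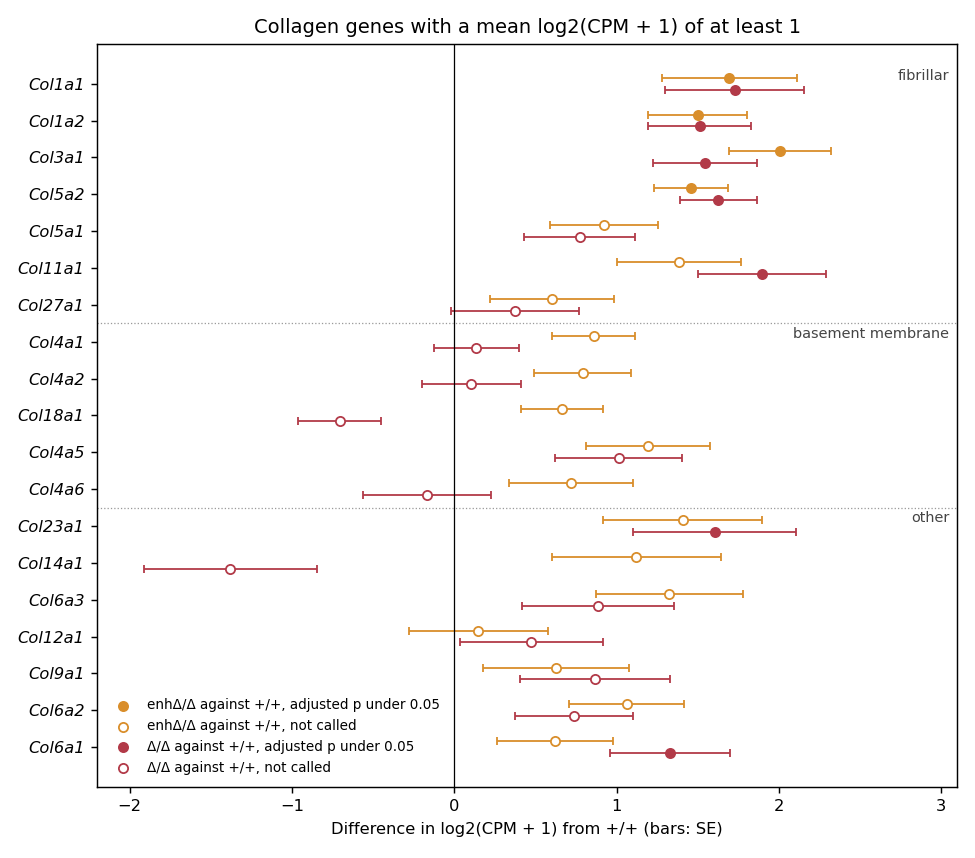
Difference from Etv2+/+ in log2(CPM + 1), with SE bars, of the 19 collagen genes with a mean log2(CPM + 1) of at least 1, for Etv2enhΔ/Δ (orange) and Etv2Δ/Δ (red), ordered by class and then by mean level, with filled points for an adjusted p under 0.05. Fibrillar genes sit right of 0 in both mutants, while Col18a1 (0.66 and -0.71) and Col14a1 (1.12 and -1.38) lie on opposite sides.

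Promoter sequence is shown for 3 fibrillar genes that rose in the null against Etv2+/+ and for Col18a1, which was lower in the null than in Etv2enhΔ/Δ. These are unlike comparisons, and Col18a1 was not called against Etv2+/+ in either mutant. The letters come from windows of 250 bases before a RefSeq gene start (table build GRCm38.p6), which matched the mm9 genome exactly and once. Bases inside an annotated exon were left out. For Col1a2 this start lies inside the gene coordinates given below, so its letters are not upstream of those coordinates. Capitals mark the motifs found, which do not overlap one another here. The motif CCAAT, the motif TATAAA, the motif GGGCGG and the ETS-type motif CCGGAAGT were searched on both strands, so that ATTGG and CCGCCC are matches on the other strand.
Col3a1, chr1:45368133-45368382 (mm9, + strand): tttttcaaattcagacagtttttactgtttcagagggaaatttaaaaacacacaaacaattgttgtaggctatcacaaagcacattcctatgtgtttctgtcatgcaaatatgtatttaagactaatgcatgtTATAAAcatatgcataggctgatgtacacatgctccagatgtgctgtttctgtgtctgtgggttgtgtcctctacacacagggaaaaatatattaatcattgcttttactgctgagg
Col11a1, chr3:113733208-113733457 (mm9, + strand): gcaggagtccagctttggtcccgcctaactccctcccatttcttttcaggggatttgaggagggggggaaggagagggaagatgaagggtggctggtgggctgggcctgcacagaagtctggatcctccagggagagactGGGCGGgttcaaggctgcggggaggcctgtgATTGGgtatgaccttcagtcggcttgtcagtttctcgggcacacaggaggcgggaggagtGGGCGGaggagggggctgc
Col1a2, chr6:4455370-4455492 (mm9, + strand): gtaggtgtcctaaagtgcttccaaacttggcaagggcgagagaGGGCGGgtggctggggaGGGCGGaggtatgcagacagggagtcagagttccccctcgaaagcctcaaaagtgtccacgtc
Col18a1, chr10:76629294-76629525 (mm9, - strand): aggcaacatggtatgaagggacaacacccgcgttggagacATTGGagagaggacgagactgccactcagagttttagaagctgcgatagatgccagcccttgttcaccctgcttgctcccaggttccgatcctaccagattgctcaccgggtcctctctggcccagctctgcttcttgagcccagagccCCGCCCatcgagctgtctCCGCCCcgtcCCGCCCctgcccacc

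Promoters were matched for 27 of the 36 collagens (30 starts). Over the whole 250-base windows GGGCGG or its complement was found at 18 of 30 collagen starts and at 32.7% of all 32851 promoters, CCAAT at 12 of 30 and 33.8%, TATAAA at 4 of 30 and 12.4%, and CCGGAAGT at 0 of 30 and 2.88%. Col3a1 held the TATAAA letters and no GGGCGG, whereas Col1a2 and Col11a1, which rose with it, held GGGCGG and CCAAT and no TATAAA. Col18a1, which was not called against Etv2+/+, also held GGGCGG and CCAAT. A second start of Col18a1 held none of the motifs. The CCAAT of Col1a2 lies in its window outside the letters shown. These matches describe letters only.

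Type I collagen is built of the Col1a1 and Col1a2 chains and is the main fibrillar collagen of most connective tissues. Col1a1 (ENSMUSG00000001506, chr11:94797538-94814356) lay between 69.5 and 98.6 CPM in Etv2+/+ (median 81.4). In Etv2enhΔ/Δ it was at 357, 237, 344, 416 and 150.1 CPM, and in Etv2Δ/Δ at 463, 631, 512, 249 and 66.9 CPM. Every Etv2enhΔ/Δ library and 4 of 5 Etv2Δ/Δ libraries were above all Etv2+/+ libraries, and Etv2Δ/Δ replicate 5 was below them. The log2 difference was 1.70 ± 0.42 (SE, limma adjusted p = 0.0284) in Etv2enhΔ/Δ and 1.73 ± 0.43 (adjusted p = 0.00567) in Etv2Δ/Δ. Without Etv2Δ/Δ replicate 5 the latter was 2.37 ± 0.38 (adjusted p = 3.22e-05). The Etv2enhΔ/Δ call on Col1a1 is the least stable of the 4: it was lost in 12 of 43 alternatives, among them the count-based fit (adjusted p = 0.0519) and the fits without Etv2+/+ replicate 1, 2 or 3 or Etv2enhΔ/Δ replicate 1, 3 or 4 (adjusted p from 0.0508 to 0.102). The null call on Col1a1 and Col1a2 was lost when only Etv2+/+ and Etv2Δ/Δ libraries were fitted.

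Col1a2 (ENSMUSG00000029661, chr6:4454814-4491543) followed its partner. It lay between 51.3 and 98.6 CPM in Etv2+/+ (median 68.1), and at 261, 221, 232, 249.5 and 107 CPM in Etv2enhΔ/Δ. In Etv2Δ/Δ it was at 303, 327, 352, 189 and 67.9 CPM. Again all Etv2enhΔ/Δ libraries were above the Etv2+/+ range and Etv2Δ/Δ replicate 5 was inside it. The log2 differences were 1.50 ± 0.31 (limma adjusted p = 0.00508) and 1.51 ± 0.32 (adjusted p = 0.00109). Per kilobase of transcript, the Col1a1 level was 0.901 to 1.23 times that of Col1a2 in Etv2+/+, 0.967 to 1.50 times in Etv2enhΔ/Δ and 0.888 to 1.74 times in Etv2Δ/Δ, ranges that overlap.

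Col3a1 (ENSMUSG00000026043, chr1:45368383-45406551), whose homotrimers form the thin fibres of distensible tissues, showed the largest log2 difference of any collagen in Etv2enhΔ/Δ. It lay between 19.9 and 42.4 CPM in Etv2+/+ (median 37.7) and at 169, 141, 179.9, 250.1 and 70.9 CPM in Etv2enhΔ/Δ. Its values in Etv2Δ/Δ were 150.4, 193, 149.7, 99.5 and 45.1 CPM. No library of either mutant overlapped Etv2+/+, although Etv2Δ/Δ replicate 5 was within the range of Etv2+/Δ (18.3 to 57.4 CPM). The log2 difference was 2.01 ± 0.31 in Etv2enhΔ/Δ (limma adjusted p = 0.00015) and 1.55 ± 0.32 in Etv2Δ/Δ (adjusted p = 0.000988), and the difference between the mutants was -0.46 ± 0.32 (adjusted p = 0.522).

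Col5a2 (ENSMUSG00000026042, chr1:45431166-45560127), a chain of the minor fibrillar type V, is the neighbour of Col3a1, 24614 bases away on the opposite strand. It lay between 15.7 and 33.8 CPM in Etv2+/+ (median 30.3). It was at 78.2, 84.8, 73.4, 86.9 and 52.7 CPM in Etv2enhΔ/Δ and at 96.4, 105, 113, 52.4 and 61.2 CPM in Etv2Δ/Δ. All 10 mutant libraries were above every Etv2+/+ library and above every library of the other 3 genotypes (at most 46.9 CPM), Etv2Δ/Δ replicate 5 among them. The log2 differences were 1.46 ± 0.23 (limma adjusted p = 0.000164) and 1.63 ± 0.23 (adjusted p = 6.4e-06). Its partner Col5a1 lay between 20.2 and 28.4 CPM in Etv2+/+, at 38.2 to 75.4 CPM in Etv2enhΔ/Δ and at 22.99 to 66.3 CPM in Etv2Δ/Δ. Neither comparison of Col5a1 with Etv2+/+ was called (adjusted p = 0.218 and 0.141), though all 5 Etv2enhΔ/Δ libraries were above the Etv2+/+ range. Without Etv2Δ/Δ replicate 5 Col5a1 was called higher in the null, at 1.07 ± 0.35 (adjusted p = 0.0393).

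Col11a1 (ENSMUSG00000027966, chr3:113733458-113923636), a chain of type XI collagen, which is best known from cartilage, was a low gene in Etv2+/+, at 3.79 to 10.7 CPM (median 5.82). It was at 24.7, 15.3, 20.7, 32.4 and 10.4 CPM in Etv2enhΔ/Δ and at 53.7, 49.2, 36.8, 32.2 and 7.92 CPM in Etv2Δ/Δ. One library of each mutant, replicate 5 in both, fell inside the Etv2+/+ range, and the others were above it. Col11a1 rose in Etv2Δ/Δ by 1.90 ± 0.39 (limma adjusted p = 0.000965), while the difference of 1.38 ± 0.38 in Etv2enhΔ/Δ was not called (adjusted p = 0.0673). With Etv2Δ/Δ replicate 5 left out of the fit, Col11a1 was called in Etv2enhΔ/Δ as well, at 1.43 ± 0.34 (adjusted p = 0.0157). The difference between the mutants, 0.51 ± 0.40, was not called either (adjusted p = 0.572). Of the remaining fibrillar genes, Col27a1 had 2309 reads over all libraries with log2 differences of 0.60 and 0.37, and Col2a1, the cartilage type II chain, and Col24a1 had 426 and 143 reads.

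**Figure D4:**
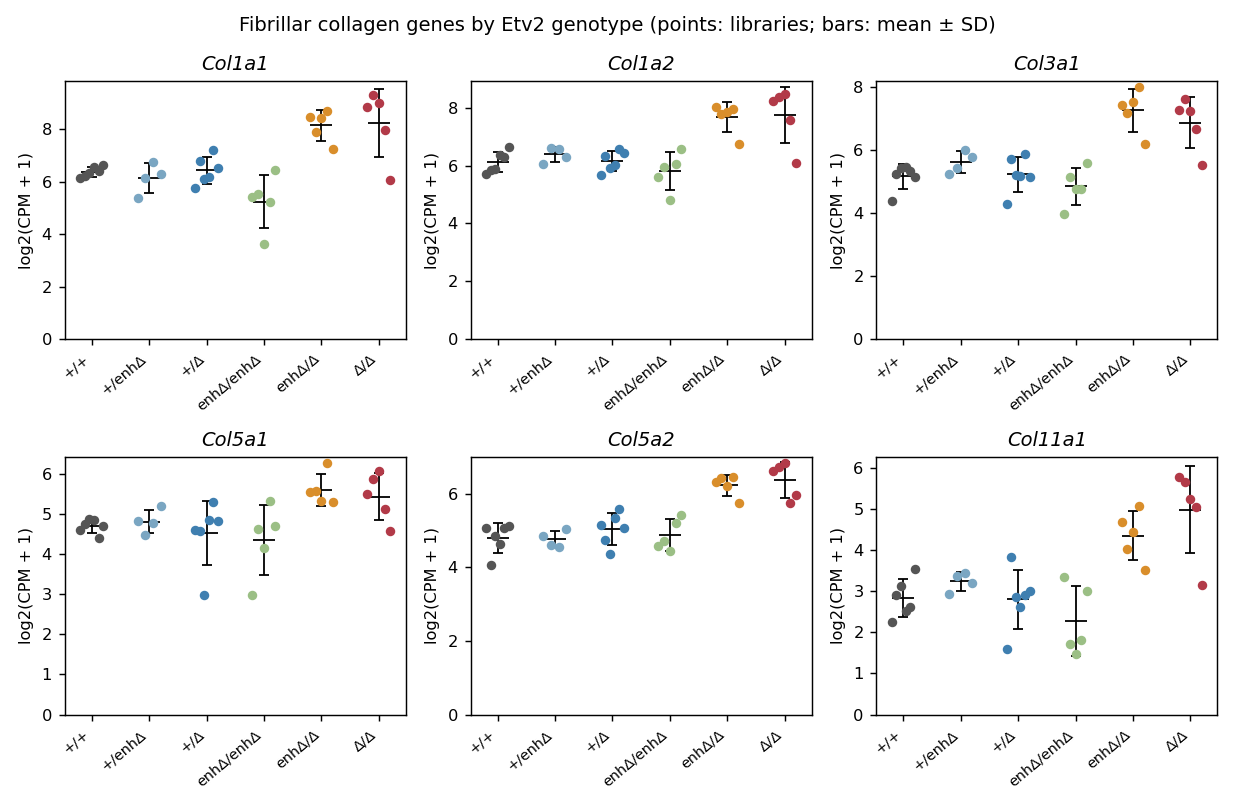
log2(CPM + 1) of 6 fibrillar collagen genes by Etv2 genotype, with 1 point per library and bars for mean ± SD. Col5a2 shows no overlap between the 10 libraries of both mutants and any library of the other genotypes, and the low Etv2Δ/Δ point of Col1a1 (66.9 CPM), Col1a2 (67.9 CPM) and Col11a1 (7.92 CPM) is replicate 5.

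Col4a1 was the most abundant collagen of the normal yolk sac. Per kilobase of transcript it stood first in Etv2+/+, at 22.7 ± 2.82 CPM per kilobase (SD, n = 6), followed by Col1a1 (14.0 ± 1.93), Col1a2 (13.2 ± 3.41), Col4a2 (11.3 ± 1.84), Col3a1 (6.38 ± 1.49) and Col18a1 (5.88 ± 0.668). Col1a1, Col1a2 and Col4a2 lay within 1 SD or so of their neighbours in this order, as did Col3a1 and Col18a1. In Etv2Δ/Δ the order began with Col1a1 (64.8 ± 37.9) and Col1a2 (46.3 ± 22.1), followed by Col4a1 (26.5 ± 12.1) and Col3a1 (22.9 ± 10.2), although the spread of that group is wide.

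Col4a1 (ENSMUSG00000031502, chr8:11198423-11312826) and Col4a2 (ENSMUSG00000031503, chr8:11312805-11449287) are transcribed head to head and their annotated first exons share 22 bases on opposite strands, so a few reads cannot be placed without strand. Col4a1 lay between 121 and 176 CPM in Etv2+/+ (median 154). It was at 293, 216, 239, 393 and 235 CPM in Etv2enhΔ/Δ and at 121, 270.4, 254, 125 and 105 CPM in Etv2Δ/Δ. The Etv2enhΔ/Δ libraries all lay above Etv2+/+, whereas the null was split, with replicates 2 and 3 above it, replicates 1 and 4 at its lower end and replicate 5 below it. The log2 differences of 0.86 ± 0.25 and 0.14 ± 0.26 were not called (limma adjusted p = 0.0975 and 0.81).

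Col4a2 gave the same picture, with 56.3 to 86.4 CPM in Etv2+/+ (median 74.4) and 136, 119, 103, 175 and 116 CPM in Etv2enhΔ/Δ. In Etv2Δ/Δ it was at 71.0, 147, 123, 70.6 and 35.3 CPM. Its log2 differences were 0.79 ± 0.30 and 0.11 ± 0.30 (adjusted p = 0.237 and 0.881). When only the Etv2+/+ and Etv2enhΔ/Δ libraries were fitted, Col4a1 and Col4a2 were among 8 collagens called higher. The Col4a1 level per kilobase was 1.77 to 2.41 times that of Col4a2 in Etv2+/+, 1.78 to 2.27 times in Etv2enhΔ/Δ and 1.65 to 2.01 times in 4 Etv2Δ/Δ libraries, with 2.90 times in replicate 5.

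Of the other type IV chains, Col4a5 lay between 2.78 and 8.12 CPM in Etv2+/+, at 6.71 to 22.0 CPM in Etv2enhΔ/Δ and at 9.46 to 17.5 CPM in Etv2Δ/Δ. All 5 null libraries, replicate 5 at their top, were above Etv2+/+, but neither difference was called (1.19 and 1.01, limma adjusted p = 0.139 and 0.0854). Col4a6, which starts 1308 bases from Col4a5 on the X chromosome and on the other strand, had log2 differences of 0.72 and -0.17 that were not called.

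Col18a1 (ENSMUSG00000001435, chr10:76514923-76629293), the source of the angiogenesis inhibitor endostatin, was the basement membrane gene that separated the mutants. It lay between 32.3 and 43.2 CPM in Etv2+/+ (median 37.4). In Etv2enhΔ/Δ it was at 58.2, 67.3, 43.9, 79.9 and 47.7 CPM, all above Etv2+/+. In Etv2Δ/Δ it was at 17.8, 30.5, 34.8, 17.9 and 13.1 CPM, with 4 of 5 libraries below the Etv2+/+ range and replicate 3 within it. The null was lower than Etv2enhΔ/Δ by a log2 difference of -1.37 ± 0.26 (limma adjusted p = 0.00074), and the libraries of both groups did not overlap. Among all genes 4.9% were called in that comparison, 1.55% higher and 3.36% lower in the null, and 3.6% were lower in every null library and 1.87% higher. Against Etv2+/+ the differences were 0.66 ± 0.25 and -0.71 ± 0.26, and neither was called (adjusted p = 0.242 and 0.0655). Against Etv2+/Δ Col18a1 was lower in the null by a log2 difference of -0.80 (adjusted p = 0.0295), a call that was lost without Etv2Δ/Δ replicate 5 (-0.58, adjusted p = 0.13) and when only the groups compared were fitted (-0.68, adjusted p = 0.2). Endothelial markers, given above, moved in the same direction between the mutants, and their part in this result was not tested.

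**Figure D5:**
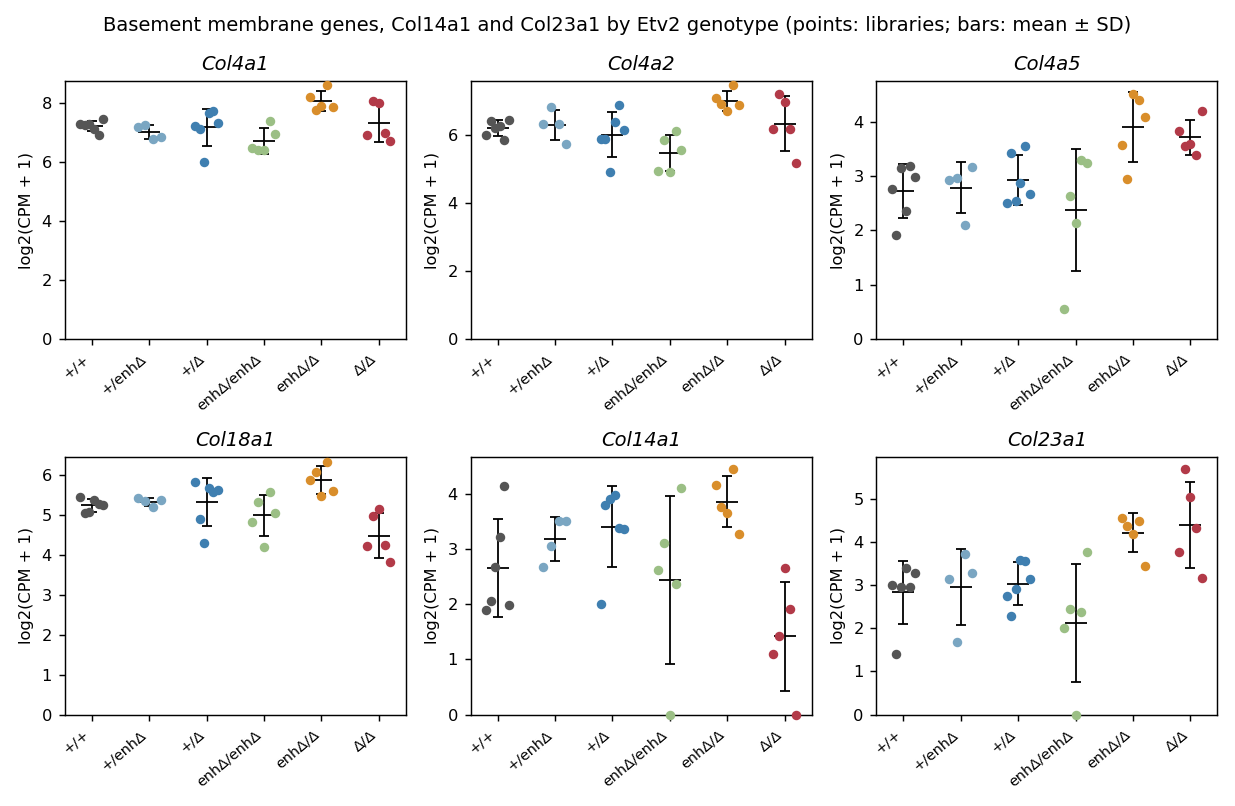
log2(CPM + 1) of Col4a1, Col4a2, Col4a5, Col18a1, Col14a1 and Col23a1 by Etv2 genotype, with 1 point per library and bars for mean ± SD. Col18a1 and Col14a1 show no overlap between Etv2enhΔ/Δ and Etv2Δ/Δ, and Col4a1 and Col4a2 are higher than in all Etv2+/+ libraries in each Etv2enhΔ/Δ library.

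Col14a1 (ENSMUSG00000022371, chr15:55139305-55352358), a fibril-associated collagen that binds the surface of type I fibrils and decorin, was the second and last collagen called between the mutants. It lay between 2.71 and 16.7 CPM in Etv2+/+ (median 4.28). In Etv2enhΔ/Δ it was at 16.8, 12.6, 11.6, 20.9 and 8.67 CPM and in Etv2Δ/Δ at 1.13, 1.67, 5.34, 2.78 and 0 CPM. The null libraries were all below those of Etv2enhΔ/Δ, and both groups overlapped the wide range of Etv2+/+. The difference was -2.50 ± 0.54 (limma adjusted p = 0.00342), and it kept its call in all 43 alternatives, as did that of Col18a1. Many of these alternatives leave out a library of neither mutant or use the division by Ftl2-ps, which both mutants share. Such alternatives could change this comparison little. Against Etv2+/Δ (3.01 to 14.8 CPM) Col14a1 fell in the null by 2.07 (adjusted p = 0.0061). None of the 9 fibrillar genes was called between the mutants.

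Type VI collagen, which forms beaded filaments around cells from the Col6a1, Col6a2 and Col6a3 chains, was scarce in Etv2+/+. Col6a1 was at 0.0958 to 1.30 CPM there (median 0.775), at 0.734, 4.38, 2.71, 2.06 and 0.647 CPM in Etv2enhΔ/Δ and at 8.31, 3.65, 4.52, 2.16 and 2.79 CPM in Etv2Δ/Δ. All null libraries were above Etv2+/+, while 2 of the Etv2enhΔ/Δ libraries were inside its range. Col6a1 rose in the null by 1.33 ± 0.37 (limma adjusted p = 0.0141), though it was not called in the count-based fit (adjusted p = 0.0913), without Etv2+/+ replicate 2 (adjusted p = 0.0895) or without Etv2Δ/Δ replicate 3 (adjusted p = 0.0586). Col6a2 was at 2.26 to 4.67 CPM in Etv2enhΔ/Δ against 0.192 to 2.35 CPM in Etv2+/+, and its differences of 1.06 and 0.74 were not called (adjusted p = 0.165 and 0.199). Against Etv2+/Δ it rose in both mutants (1.37 and 1.05, adjusted p = 0.0413 and 0.0458), calls near the threshold on 639 reads over all libraries. Both were lost when only the groups compared were fitted (adjusted p = 0.0528 and 0.196) and with the replicate block (adjusted p = 0.0835 and 0.0803), and that in Etv2enhΔ/Δ also with the mitochondrial share as a term (adjusted p = 0.0981). Without Etv2Δ/Δ replicate 5 Col6a2 was called higher in the null than in Etv2+/+, at 1.11 ± 0.37 (adjusted p = 0.0379). Col6a3 was at 11.5, 8.27, 14.8, 13.4 and 6.53 CPM in Etv2enhΔ/Δ, all above the Etv2+/+ range of 0.687 to 6.43 CPM. Its log2 difference there was 1.33 ± 0.46 (adjusted p = 0.184), and 1.40 ± 0.33 (adjusted p = 0.0165) with Etv2Δ/Δ replicate 5 left out of the fit. In Etv2Δ/Δ it was at 14.4, 13.9, 14.2, 14.5 and 0.261 CPM, so that 4 libraries lay within 1 CPM of each other and replicate 5 was below every Etv2+/+ library. With that library the difference of the null was 0.88 ± 0.47 (adjusted p = 0.239), and without it 1.69 ± 0.37 (adjusted p = 0.00178).

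Among the last members, the transmembrane collagen Col23a1 lay between 1.63 and 9.54 CPM in Etv2+/+ (median 6.91), at 22.5, 19.8, 17.2, 21.5 and 9.90 CPM in Etv2enhΔ/Δ and at 12.5, 50.4, 31.7, 18.8 and 7.92 CPM in Etv2Δ/Δ. It rose in the null by 1.60 ± 0.50 (limma adjusted p = 0.0307), not in Etv2enhΔ/Δ (1.41 ± 0.49, adjusted p = 0.197), where nevertheless no library overlapped Etv2+/+. Without Etv2+/+ replicate 2, the lowest library of its group, the null call was lost (1.19 ± 0.52, adjusted p = 0.156), as it was without Etv2Δ/Δ replicate 2 or 3 (adjusted p = 0.0971 and 0.105). Col26a1 was at 0 to 1.44 CPM in Etv2+/+ and at 1.31 to 5.29 CPM in the null, a rise of 1.37 ± 0.40 (adjusted p = 0.0188) that rests on 526 reads over all libraries and was lost without Etv2Δ/Δ replicate 3 (adjusted p = 0.102). In total, no library overlapped Etv2+/+ for 10 of 36 collagens in Etv2enhΔ/Δ, all of them higher (of all genes 1.43% were higher and 1.99% lower in this way), and for 4 in Etv2Δ/Δ, all of them higher (of all genes 2.54% higher and 4.45% lower).

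The other 20 members gave no call in any comparison with all libraries in the fit described above. Under alternatives, Col6a5 was called lower in the null as given above, and Col9a1 was called higher in the null without Etv2Δ/Δ replicate 5. They held 27 to 2309 reads each over the 31 libraries, 4 of them (Col27a1, Col12a1, Col9a1 and Col4a6) had a read in every library, and their highest group mean was 8.31 CPM. Log2 differences from Etv2+/+ ran from -0.55 to 0.72 in Etv2enhΔ/Δ and from -0.33 to 0.87 in Etv2Δ/Δ.

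Genes that make, process and bind collagen were read from the same fit. Of 50 such genes measured, 4 rose and none fell in Etv2enhΔ/Δ (median log2 difference 0.45), where 1.33% of all genes were called. In Etv2Δ/Δ 17 rose and 3 fell (median 0.56), where 13.3% of all genes were called. These shares of all genes are also the background of the smaller groups that follow, and the all-gene medians were 0.01 and -0.01. The group most often called was that of 7 fibril-binding proteins, of which 2 rose in Etv2enhΔ/Δ and 5 rose and 1 fell in Etv2Δ/Δ. Postn, a matricellular protein that promotes collagen cross-linking, rose by 1.79 and 2.00 (limma adjusted p = 0.00124 and 6.9e-05). Lum, a small proteoglycan of fibril surfaces, rose by 1.03 and 1.69 (adjusted p = 0.0264 and 1.5e-05). Bgn, a related proteoglycan, fell in the null by 1.25 (adjusted p = 0.00233).

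Of 15 genes of proline and lysine hydroxylation and glycosylation, 1 rose in Etv2enhΔ/Δ and 4 rose in the null. P3h1, a prolyl 3-hydroxylase of fibrillar chains, rose by 0.80 and 0.76 (limma adjusted p = 0.0343 and 0.012). Plod2, the lysyl hydroxylase of the telopeptides, rose in the null by 0.76 (adjusted p = 0.000312), and P3h2, which acts on type IV chains, by 0.67 (adjusted p = 0.00555). For folding and export, Fkbp10, a chaperone of type I procollagen, rose in Etv2enhΔ/Δ by 1.32 (adjusted p = 0.0132) and Sec23a, a coat protein of the vesicles that export procollagen, rose in the null by 0.48 (adjusted p = 0.000701).

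Among 8 receptors none was called in Etv2enhΔ/Δ, and 3 rose and 1 fell in the null. Ddr2, a receptor tyrosine kinase for fibrillar collagen, rose by 1.69 (limma adjusted p = 0.00148) and Mrc2, an endocytic collagen receptor, by 1.18 (adjusted p = 0.0023). None of the 5 cross-linking enzymes and none of the 3 collagenases and gelatinases was called in either mutant against Etv2+/+.

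Between the mutants 1 gene of these 50 was higher in the null and 5 were lower, beside 4.9% of all genes called. Plod2 was higher by 0.52 (limma adjusted p = 0.0289). Bgn was lower, with a log2 difference of -1.56 (adjusted p = 0.00043), as were the collagen-binding integrin chains Itga1 (-1.16, adjusted p = 0.00405) and Itga2 (-1.63, adjusted p = 0.00337). Tll1, a protease that trims procollagen, differed by -1.47 (adjusted p = 0.0196) and Mmp14, a membrane-bound collagenase, by -0.78 (adjusted p = 0.0483).

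Markers of cells that make collagen were read beside these results. Of 12 markers of extraembryonic mesoderm and mesenchyme, 1 rose in Etv2enhΔ/Δ and 4 rose in Etv2Δ/Δ, with none lower. For this list and the next, 1.33% and 13.3% of all genes were called in these comparisons. The markers did not move alike. Hand1 and Tbx20 averaged 152.7 and 110.3 CPM in Etv2+/+ and 267.1 and 212.7 CPM in the null. Pdgfra and Tagln averaged 86.41 and 14.03 CPM in Etv2+/+ and 88.995 and 11.94 CPM in the null. Ahnak and Vim, at 939 and 392 CPM on average in Etv2+/+, weigh most in the sum. The summed list ran from 1746 to 2052 CPM in Etv2+/+ (median 1870), 1866 to 2801 CPM in Etv2enhΔ/Δ and 1969.9 to 3396 CPM in Etv2Δ/Δ. Of 8 parietal endoderm markers, a cell type that lays down Col4a1 and Col4a2 in bulk, 2 rose in Etv2enhΔ/Δ, and 3 rose and 1 fell in Etv2Δ/Δ, with sums of 574 to 731 CPM, 854 to 1149 CPM and 553 to 1125 CPM in the same order. Trophoblast and decidua markers summed to at most 27.2 CPM and neural markers to at most 2.89 CPM in any library, and the neural genes Sox2, Pax6 and Otx2 were at 0 in 16 to 23 of 31 libraries. The paraxial mesoderm markers Meox1 and Pax3 summed to 0 to 0.361 CPM in Etv2+/+, 0 to 3.16 CPM in Etv2enhΔ/Δ and 0.378 to 5.05 CPM in Etv2Δ/Δ. The part of these cells in the collagen results was not tested.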

How the data were processed

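Per the labels and the study's methods, the authors prepared libraries from yolk sac RNA (low input), aligned reads with STAR 2.5.2a to mm9, counted them with featureCounts and deposited edgeR-normalized values as log2(CPM + 1), beside their own comparison columns (log2 fold changes, a likelihood ratio score, p-values), which were not used. The authors' model held genotype, sex and processing batch. The batch of each library and the counting strand were not given in the sources used here, so no batch term was fitted, and the division by Ftl2-ps was tried as a term without knowing whether it is that batch. Dividing the CPM by the value of 1 read gave whole reads in 100% of values (tolerance 0.01).

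Values were fitted with limma 3.58.1 in R 4.3.3 (genotype and labelled sex, trended variance, 24 residual degrees of freedom), with Benjamini-Hochberg adjustment over 18477 genes and a threshold of 0.05. The fit was tested on simulated data. Per-kilobase levels used the mm9 transcript with the longest coding part. Genes named are collagens called in any comparison or averaging at least 10 CPM in a genotype, and, of the genes that make and bind collagen, called genes with the smallest adjusted p. Members and lists were chosen with earlier results of these data known. Libraries were labelled as separate embryos. Alternatives were other scalings, pseudocounts, filters and thresholds, further terms, a model without sex, limma-voom on recovered reads, and leaving out each library. Without the sex term no collagen called against Etv2+/+ or between the mutants lost its call.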

Additional observations from a re-analysis of the deposited data

Results flagged for a closer look

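A library stood apart from the rest of its group, by Dixon's gap test at the 95% level, in 12 of 120 group-by-measure sets, where chance gives about 6. Etv2Δ/Δ replicate 5 accounted for 3: Col6a3 at 0.261 CPM (others 13.9 to 14.5), Col11a1 at 7.92 CPM (others 32.2 to 53.7) and a Col4a1 to Col4a2 ratio per kilobase of 2.90 (others 1.65 to 2.01). Etv2+/Δ replicate 3, which has the largest mitochondrial share, was low for Col4a1 (63.9 CPM, others 138 to 214) and Col5a1 (6.92 CPM, others 22.9 to 38.1). Etv2+/Δ replicate 1 was low for Col14a1 (3.01 CPM, others 9.23 to 14.8).

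In Etv2enhΔ/Δ, replicate 5 was low for Col1a2 (107 CPM, others 221 to 261) and replicate 4 was high for Col5a1 (75.4 CPM, others 38.2 to 46.4). In Etv2+/+, replicate 1 was low for Col3a1 (19.9 CPM, others 33.8 to 42.4) and high for Col26a1 (1.44 CPM, others at most 0.295), and replicate 2 was low for Col23a1 (1.63 CPM, others 6.74 to 9.54). In Etv2+/enhΔ, replicate 4 was high for Col26a1 (2.76 CPM, others at most 0.275).

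For Col18a1 and Col14a1 the effects of the 2 mutant genotypes against the same Etv2+/+ libraries differed by -1.37 and -2.50 on the log2 scale (limma adjusted p = 0.00074 and 0.00342). This is the comparison between the mutants given above, not a separate result. None of the effects of these genes against Etv2+/+ was itself called.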

How the results depend on the processing

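Adding the library division by Ftl2-ps to the model left 2 of 4 collagens called in Etv2enhΔ/Δ (Col3a1 and Col1a2), with wider errors. Within the 23 libraries with few Ftl2-ps reads (chosen after seeing the data), where Etv2+/+ keeps 1 library, 0 were called in Etv2enhΔ/Δ and 1 in Etv2Δ/Δ (Col6a5, lower) in place of 8. Against Etv2+/Δ (also chosen after seeing the data) the counts were 6 and 9. Fitting only the groups compared gave 8 in Etv2enhΔ/Δ. At an adjusted p under 0.01, 5 were called in Etv2Δ/Δ and 8 in the F test in place of 14, and with the mitochondrial share as a term the F test gave 9. The shares of all genes called were not obtained for the alternative fits, and the cause of these shifts was not tested.

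Leaving out each library in turn gave 3 to 6 collagens in Etv2enhΔ/Δ, 6 to 12 in Etv2Δ/Δ, 2 to 3 between the mutants, 10 to 16 in the F test and 0 to 0 in the other comparisons. The 12 came without Etv2Δ/Δ replicate 5, and Col3a1, Col5a2, Col5a1, Col6a2 and Col6a3 were among them. Of 601 values of single genes under alternatives, 559 kept their call, 42 lost it and 0 changed sign. Replicate numbers did not pair the libraries (1 of 71 same-numbered pairs correlated over 0.1), and with the replicate block 3, 7, 2 and 13 collagens were called in Etv2enhΔ/Δ, in Etv2Δ/Δ, between the mutants and in the F test. Among the alternatives tried, Col18a1 and Col14a1 kept their calls between the mutants in all 43 each, with log2 differences of -1.55 to -1.15 and -3.49 to -2.14. Many of these leave out a library of neither mutant and could change that comparison little. Depth limits the members with few reads, of which 27 was the lowest total over all libraries.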
